A study of Homo sapiens with 6 samples.

Results

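The nuclear receptors are a family of transcription factors, and 46 of them, given as a list of gene symbols, were followed here among the 58336 genes of the tables. All 46 symbols were found by matching the human Ensembl gene IDs to GENCODE release 29. The libraries came from KGN clones. KGN is a human ovarian granulosa cell tumour line in which one copy of FOXL2, a forkhead factor of granulosa cells, carries the C134W protein change. Libraries of genotype FOXL2 WT/C134W, which kept the change, were 3.11 (replicate 1), 44b (replicate 2) and 3.11-44b (replicate 3). Libraries of genotype FOXL2 WT/WT, in which CRISPR/Cas9 had reverted it, were 44a (replicate 1), 4.72 (replicate 2) and 4.72-44a (replicate 3). Since only the WT/WT labels mention editing, the procedure and the genotype cannot be told apart. The labels give a time of 30 h after a transfection that they do not describe. The third title of each genotype joins the titles of the other 2, so those libraries may be mixes, and the genotypes were compared over the 4 libraries that each name a single clone (2 of each genotype). How many cultures stand behind a library is not in the labels, so p-values measure the spread between these clones.

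A nuclear receptor binds DNA through a zinc-finger domain and, in most members, a small lipid-soluble ligand such as a steroid, retinoid, thyroid hormone or fatty acid through another domain. Binding of ligand exchanges corepressors for coactivators. Many non-steroid members work as pairs with a retinoid X receptor (RXR), and the orphan members have no established physiological ligand. In granulosa cells the family is known for NR5A1, which drives steroidogenic genes, for the estrogen receptor ESR2, and for PGR, which rises before ovulation.

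Summed expected counts, RSEM's estimates of reads per gene, ran from 35332727 to 46613068 per library, and 3 counts equalled 0.0644 to 0.0849 CPM, the counts scaled to library size and a common sum. The number of genes at each low count differed between libraries. For every gene with 8 to 12 counts there were 1.14 genes with 1 to 5 counts in 3.11 and 1.73 in 44b, against 1.14 in 44a and 4.22 in 4.72. In 44a, 210 genes had 10 counts and 150 had 4, whereas in 4.72 these numbers were 201 and 655. The part of duplicated reads in this pattern was not tested, and floors given in counts cover counting error only. FOXL2 itself had 5.25 TPM in 3.11 and 5.48 TPM in 44b, against 3.70 TPM in 44a and 2.36 TPM in 4.72, where TPM is the transcript level scaled by length to a common sum. Gene counts do not show the allele, so they do not check the genotype. Of 13 granulosa markers, 6 reached 1 TPM in a single clone (FOXL2, INHBA, AMH, STAR, HSD17B1 and FST), while FSHR, AMHR2, GATA4 and WT1 were listed at 0 in all 6 libraries. The 5 fibroblast and stromal markers, led by COL1A1, summed to 5595 TPM in 3.11 and 5823 TPM in 44b, against 12857 TPM in 44a and 14843 TPM in 4.72, carried by COL1A1 and ACTA2. PDGFRA of the same list had 21.8 and 13.9 TPM in WT/C134W against 13.9 and 9.32 TPM in WT/WT. The 13 granulosa markers summed to 91.7 TPM in 3.11 and 199 TPM in 44b, against 200.2 TPM in 44a and 203 TPM in 4.72, so that 3.11 stood apart. The part of these markers in the receptor values was not tested. In bulk RNA, fewer cells with a transcript and less transcript per cell cannot be told apart.

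**Figure D1:**
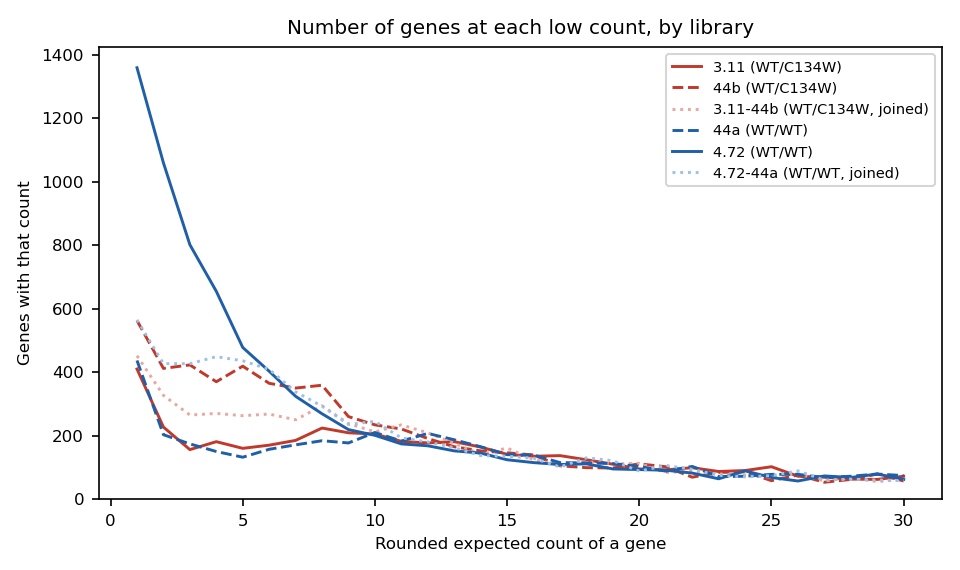
The plot of genes per low count shows, for each library, how many genes (vertical axis) had each rounded expected count between 1 and 30 (horizontal axis); colour gives the genotype. Clone 4.72 falls steadily from 1360 genes with 1 count, while 3.11 and 44a have 410 and 437 genes with 1 count and stay near 200 genes at counts of 8 to 12.

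In the KGN clones, 26 of the 46 receptors reached at least 1 TPM in a single clone, 11 stayed below that level in every single clone, and 9 had 0 counts in all 6 libraries. The 26 were spread over a broad range, with 17 at a mean of 10 TPM or more, 7 between 1 and 10 TPM and 2 below 1 TPM (means over the 4 single clones). At the top stood NR2F2, an orphan receptor of the COUP group, with 62.6 and 50.9 TPM in the WT/C134W clones 3.11 and 44b, against 41.1 and 69.4 TPM in the WT/WT clones 44a and 4.72. The next was NR1H2, the widely expressed liver X receptor that senses oxysterols, with 46.2 and 43.1 TPM in WT/C134W against 45.3 and 48.4 TPM in WT/WT. In both receptors the genotypes overlapped on the TPM scale. In CPM NR2F2 overlapped too, but NR1H2 did not, with 49.3 and 50.3 CPM in WT/C134W against 53.0 and 60.5 CPM in WT/WT. The joined mutant library had 54.0 CPM of NR1H2, above 44a and above the joined WT/WT library (53.8 CPM). Then followed RARA, PPARD, RXRB and NR2F1 at means of 31.8, 30.9, 29.7 and 25.6 TPM. The ranges of neighbours in this order overlapped over the 4 clones throughout the 26, with the exception of NR1H2, whose lowest clone lay above the highest of RARA. A 2-fold range over the 4 clones contained 18 of the 26. The 46 receptors summed to 465 TPM in 3.11 and 445 TPM in 44b, against 457 TPM in 44a and 491 TPM in 4.72, and their joined libraries held 473 TPM (WT/C134W) and 466 TPM (WT/WT).

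**Figure D2:**
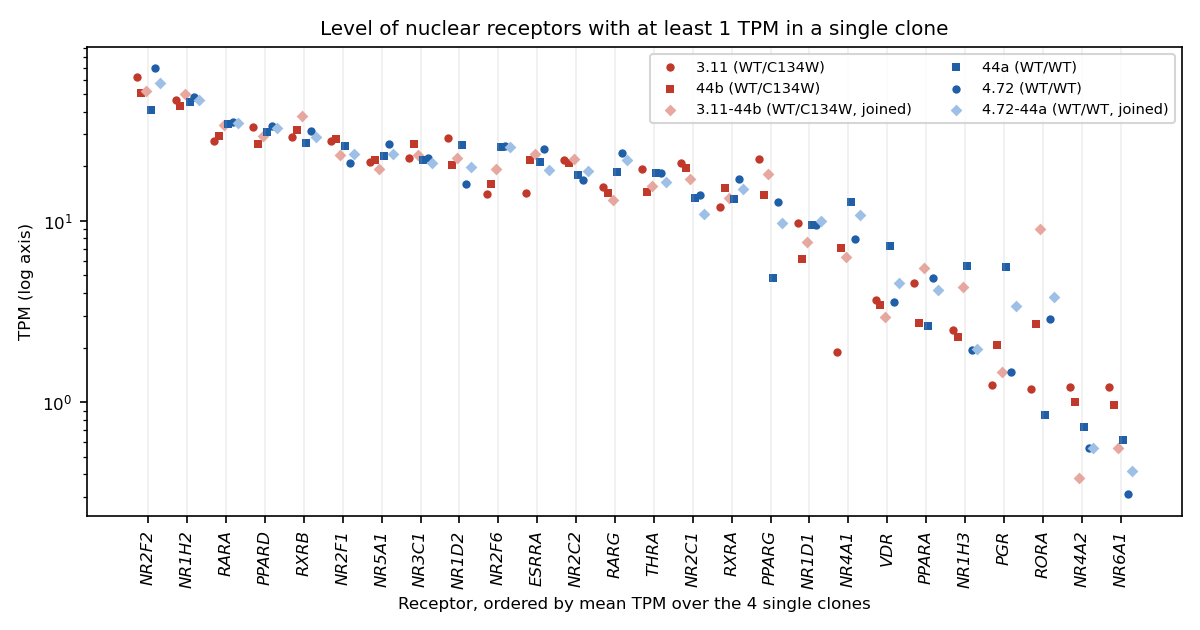
The plot of receptor levels gives TPM on a log axis for the 26 receptors with at least 1 TPM in a single clone, ordered by mean level, with one point per library (red, WT/C134W; blue, WT/WT; pale diamonds, the joined libraries). The left part is narrow, with NR1H2 between 43.1 and 48.4 TPM in the single clones, and points spread more in the right part, where NR4A1 runs from 1.89 to 12.8 TPM.

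Between genotypes, no receptor passed the test. After a filter on low counts, 31 receptors entered edgeR's quasi-likelihood test across 16416 genes, and 0 had a Benjamini-Hochberg adjusted p under 0.05, as did 0 genes of all tested (0% called). Their adjusted p ran from 0.512 to 0.999. An unadjusted p under 0.05 was found for 2 receptors, NR2F6 and NR4A1, which is 6.45% of the 31 against 7.57% of all genes tested. Given as WT/C134W over WT/WT, log2 fold changes were below 0 in 22 receptors (71.0%) and above 0 in 9, against 49.4% below 0 over all genes tested. The median was -0.28 for the receptors and 0.01 for all genes. In 11 receptors both WT/C134W clones lay below both WT/WT clones in normalised CPM (35.5%, against 19.7% of all genes tested), and in 3 receptors they lay above (9.68%, against 19.9%). Either way, 14 of 31 did not overlap (45.2%, against 39.6% of all genes tested). The 11 include NR5A2 and NR4A3, which were below 1 TPM with 0 counts in 3.11. They also include PGR and NR1H2, whose joined mutant library lay above a WT/WT clone in CPM. The 3 include NR4A2, whose joined mutant library lay below both WT/WT clones. Of the 15 receptors that were not tested, 9 were those with 0 counts throughout. Of the 31 tested receptors, 5 were below 1 TPM in every single clone. Under library totals as the only scaling the medians were -0.06 for the receptors and 0.23 for all genes. DESeq2, which called 283 genes (1.72%), called 1 receptor, NR2F6. The same receptor was called on all 6 libraries, where 3.18% of genes were, and it and NR4A1 were called without a filter, where 2.73% of genes were. Those 6 include the joined libraries, which may not be independent of the single clones. With a block that pairs 44a with 44b, and so 4.72 with 3.11, 0 receptors and 0.0305% of genes were called.

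**Figure D3:**
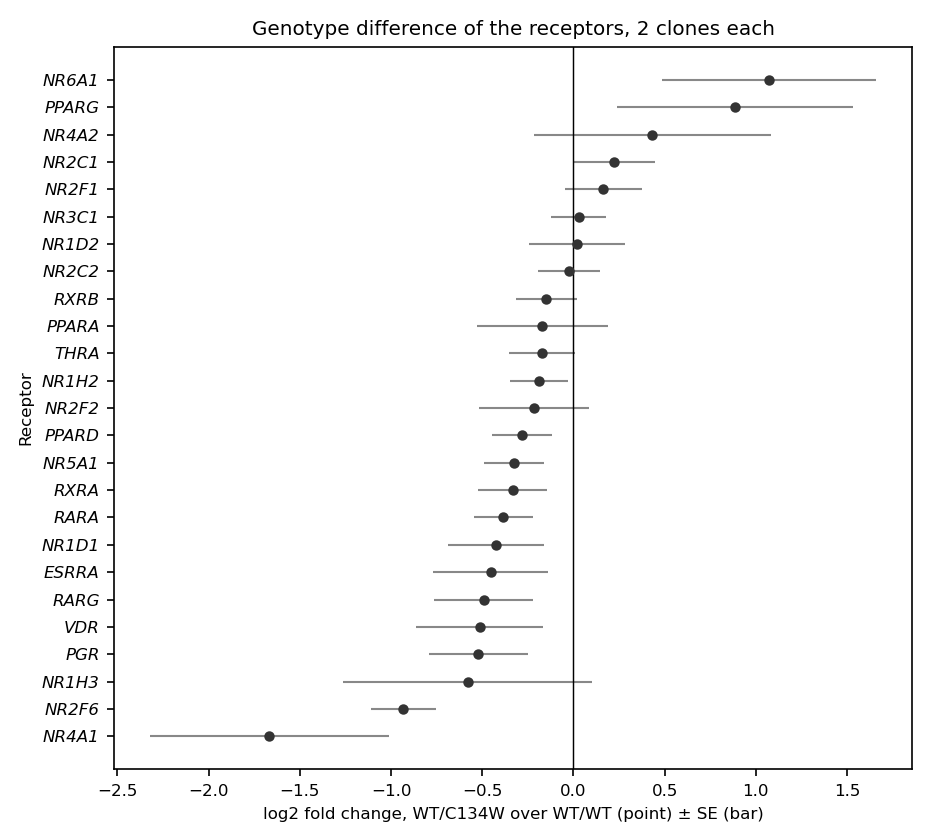
The plot of genotype differences gives each receptor's log2 fold change on the horizontal axis (WT/C134W over WT/WT) with its SE as a bar, for the 25 tested receptors with an SE under 1; the other 6 tested had an SE of 1 or more. NR6A1 at 1.07 and PPARG at 0.88 stand at the top and NR4A1 at -1.67 and NR2F6 at -0.93 at the bottom, and 18 of the 31 tested receptors lie within 0.5 of 0.

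The orphan receptors of the COUP group bind direct repeats of a hexamer and mostly repress. NR2F6, a COUP group member known to repress the human LH receptor gene, had the smallest unadjusted p of the family. It had 14.2 TPM in 3.11 and 16.1 TPM in 44b, against 25.7 TPM in 44a and 25.9 TPM in 4.72, and the joined libraries held 19.4 TPM (WT/C134W) and 25.6 TPM (WT/WT). Both mutant clones lay below both reverted clones, and so did the joined mutant library. The mean was 22.3 ± 2.64 CPM in WT/C134W and 42.5 ± 0.81 CPM in WT/WT (SD, n = 2 clones each), a log2 fold change of -0.93 ± 0.18 (SE from edgeR's F). Its adjusted p was 0.512 with edgeR and 0.457 with limma voom, against 0.00564 with DESeq2 and 0.0303 with edgeR on all 6 libraries. The fit on all 6 libraries, with a log2 fold change of -0.79, counts the joined libraries as independent, which they may not be. Leaving out each clone in turn gave log2 fold changes between -1.07 and -0.81. The gene lies on chromosome 19 from 17231883 to 17245940 (GRCh38, minus strand), and RSEM's effective length for it stayed between 2236 and 2244 bases in the 6 libraries. The LH receptor gene LHCGR was listed at 0 TPM in every library. NR2F2, which with NR2F1 makes up the rest of the COUP group, had a log2 fold change of -0.22 ± 0.30, and without clone 4.72 it was 0.30. NR2F1 had 27.6 and 28.2 TPM in WT/C134W against 25.9 and 20.9 TPM in WT/WT, with a log2 fold change of 0.16 ± 0.21 and an overlap of the genotypes in CPM. Its counts were partly shared with the antisense gene NR2F1-AS1, whose exons overlap it by 158 bases.

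The testicular receptors NR2C1 and NR2C2 are orphan relatives of the COUP group that act on many of the same repeats. NR2C1 had 20.8 and 19.5 TPM in WT/C134W against 13.3 and 14.0 TPM in WT/WT, so the genotypes did not overlap on this scale. Its counts differed less, with means of 14.5 ± 0.37 CPM in WT/C134W and 12.4 ± 0.79 CPM in WT/WT (SD, n = 2 each). The log2 fold change was 0.22 ± 0.22. In CPM too the single clones did not overlap, at 14.8 and 14.2 CPM in WT/C134W against 13.0 and 11.9 CPM in WT/WT. The joined libraries had 13.4 CPM (WT/C134W) and 13.2 CPM (WT/WT). The log2 ratio of its mean TPM was 0.56, and the effective length was 1102 and 1091 bases in WT/C134W against 1341 and 1145 bases in WT/WT. NR2C2 had 21.7 and 20.8 TPM in WT/C134W and 18.0 and 16.7 TPM in WT/WT, yet its log2 fold change in counts was -0.03 ± 0.17, and its exons overlap MRPS25 by 1197 bases on the other strand. Of other members of this branch, HNF4A, HNF4G and NR2E1 had 0 counts in all 6 libraries, and NR2E3 reached at most 0.14 TPM in a single clone.

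NR5A1, the receptor that activates steroidogenic genes in gonad and adrenal, was among the 7 most abundant receptors. It had 21.2 TPM in 3.11 and 21.7 TPM in 44b, against 22.8 TPM in 44a and 26.7 TPM in 4.72. Both mutant clones lay below both reverted clones by a small margin. In CPM the means were 37.3 ± 0.18 in WT/C134W and 46.8 ± 4.54 in WT/WT (SD, n = 2 each), with a log2 fold change of -0.33 ± 0.16 and an adjusted p of 0.72 in edgeR's quasi-likelihood test. Its neighbour on chromosome 9, NR6A1, an orphan receptor of germ cells and early embryos, lies on the same strand and had a difference of opposite sign, without passing the test. NR6A1 had 1.21 and 0.97 TPM in WT/C134W against 0.62 and 0.31 TPM in WT/WT, a log2 fold change of 1.07 ± 0.59. The joined libraries had 0.56 TPM (WT/C134W) and 0.42 TPM (WT/WT), and 2.56 CPM (WT/C134W) and 1.72 CPM (WT/WT), with an effective length of 6870 bases in 3.11-44b against 3214 in 3.11 and 4050 in 44b. NR5A2, the second member of the NR5A pair and a receptor of granulosa cells in the mouse ovary, had 0 and 30 counts in 3.11 and 44b against 78 and 49 counts in 44a and 4.72. The joined libraries had 20 counts (WT/C134W) and 25 counts (WT/WT), or 0.52 and 0.64 CPM, against 0.66 CPM in 44b. The log2 fold change of NR5A2 was -2.15 ± 1.72. NR0B1, a repressor of NR5A1 that lacks the zinc-finger domain, had 0 counts in all 6 libraries, as did its relative NR0B2.

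The start region of NR5A1 is shown because the gene marks the steroidogenic lineage and lay between 21.2 and 26.7 TPM in all 4 single clones. It lies at chr9:124507350-124507649 (RefSeq, GRCh38.p14, minus strand), from 250 bases before the start to 50 bases after it, and capitals mark matches, read on both strands, to an E-box (CACGTG), to the CCAAT box by its letters, and to a GC box, which was searched as GGGCGG.
NR5A1: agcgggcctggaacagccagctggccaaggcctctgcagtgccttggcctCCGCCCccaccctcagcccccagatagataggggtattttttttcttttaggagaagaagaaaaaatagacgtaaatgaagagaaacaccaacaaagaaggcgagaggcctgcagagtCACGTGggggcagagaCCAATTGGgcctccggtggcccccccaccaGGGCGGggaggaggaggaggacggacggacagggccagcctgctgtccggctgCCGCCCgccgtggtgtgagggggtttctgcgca
The E-box begins 82 bases before the start, and the pair of overlapping CCAAT matches 66 and 63 bases before it. Taking the first listed start of each gene, an E-box match was in 4 of 41 receptors (9.76%; NR2C1, NR2F2, NR5A1 and PGR) and in 7.43% of 27305 promoters. CCAAT was found in 39% of the receptors and 35.7% of all promoters, and the GC box in 56.1% and 44.6%. A forkhead core (TGTTTAC) was in 0 of the 41 receptors against 3.41% of all promoters, which says only that these letters are not in these windows. For 5 receptors (NR4A2, NR2F6, HNF4G, NR0B2 and VDR) the table used held no promoter.

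The NR4A receptors are immediate early genes whose products act without ligand, and NR4A1 had the largest fold change of the receptors with an unadjusted p under 0.05. NR4A1 had 1.89 TPM in 3.11 and 7.06 TPM in 44b, against 12.8 TPM in 44a and 7.97 TPM in 4.72. The lowest value was that of 3.11, and 44b lay just below 4.72. In CPM it averaged 3.76 ± 2.89 in WT/C134W and 11.9 ± 4.87 in WT/WT (SD, n = 2 each), a log2 fold change of -1.67 ± 0.65 with an adjusted p of 0.658 in edgeR's quasi-likelihood test. Without 3.11 the log2 fold change was -1.04, and without 44b it was -2.80. Its counts had decimals in all 6 libraries and were whole once those of AC025259.3, a gene on the other strand, were added. NR4A2 had 1.21 and 1.00 TPM in WT/C134W and 0.73 and 0.56 TPM in WT/WT, with a log2 fold change of 0.43 ± 0.65, and the joined mutant library held 0.38 TPM, below all 4 single clones. NR4A3 had 0 and 26 counts in 3.11 and 44b, against 51 and 67 counts in 44a and 4.72.

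Among the steroid receptors, the glucocorticoid receptor NR3C1 was the one at a high level. It had 22.1 and 26.5 TPM in WT/C134W against 21.6 and 22.1 TPM in WT/WT, and its log2 fold change was 0.03 ± 0.15. Its values overlapped in CPM. PGR, the progesterone receptor, had 1.24 and 2.08 TPM in WT/C134W against 5.57 and 1.46 TPM in WT/WT, where the value of 44a stood apart. In CPM the single clones did not overlap by genotype. The values were 8.44 and 10.9 CPM in 3.11 and 44b against 15.1 and 12.6 CPM in 44a and 4.72. The joined mutant library had 13.2 CPM, above both mutant clones and above 4.72, and the joined WT/WT library had 13.3 CPM. The log2 fold change was -0.52 ± 0.27 (adjusted p = 0.728, edgeR's quasi-likelihood test), and -0.34 on all 6 libraries. The estrogen receptor ESR1 had 48 and 34 counts in WT/C134W and 12 and 37 counts in WT/WT. ESR2, the main estrogen receptor of normal granulosa cells, had 0 counts in all 3 WT/C134W libraries, against 16 counts in 44a, 6 in 4.72 and 0 in 4.72-44a. It did not enter the test. NR3C2, the mineralocorticoid receptor, had 4 and 13 counts in WT/C134W against 6 and 56 counts in WT/WT, so 4.72 stood apart from the other single clones. The estrogen-related receptor ESRRA, an orphan that drives mitochondrial genes, had 14.2 and 21.6 TPM in WT/C134W against 21.2 and 24.8 TPM in WT/WT, with an overlap. Its log2 fold change was -0.45 ± 0.32, and -0.11 without 3.11. The counts of ESRRA had decimals in all 6 libraries. Its exons overlap those of TRMT112 on the other strand by 284 bases, and TRMT112 had up to 4511 counts. ESRRB and ESRRG had at most 5 and 18 counts in a library.

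All 5 tested retinoid receptors had log2 fold changes below 0 in edgeR on the single clones, and none passed the test. RARA, a retinoic acid receptor, had 27.8 and 29.6 TPM in WT/C134W against 34.4 and 35.3 TPM in WT/WT, and both mutant clones lay below both reverted clones. Its joined libraries had 33.9 TPM (WT/C134W) and 34.7 TPM (WT/WT), and 45.1 CPM (WT/C134W) and 51.2 CPM (WT/WT), the joined mutant library lying between its clones in CPM. In CPM RARA averaged 44.5 ± 3.30 in WT/C134W and 58.1 ± 4.10 in WT/WT (SD, n = 2 each), a log2 fold change of -0.38 ± 0.16 with an adjusted p of 0.678 in edgeR's quasi-likelihood test. RARG had 15.3 and 14.2 TPM in WT/C134W against 18.6 and 23.6 TPM in WT/WT. Its counts overlapped, since 3.11 had 26.6 CPM and 44a had 26.2 CPM, and the log2 fold change was -0.49 ± 0.27. RXRA, a shared partner of many receptors, had 11.9 and 15.2 TPM in WT/C134W against 13.3 and 16.9 TPM in WT/WT, and a log2 fold change of -0.33 ± 0.19. Its genotypes overlapped in TPM but not in CPM. RXRB, a partner of the same kind, had 28.99 and 31.8 TPM in WT/C134W against 26.9 and 31.2 TPM in WT/WT. Its log2 fold change was -0.15 ± 0.17, whereas the log2 ratio of its mean TPM was 0.07. It shared counts with SLC39A7, which overlaps it on the other strand. RXRG had 0 counts in all 6 libraries. RARB, itself a direct target of retinoic acid receptors, was nearly absent, with 7 and 16 counts in 3.11 and 44b against 36 and 1 in 44a and 4.72. Its log2 fold change was -0.68 ± 1.79, and the genotypes overlapped.

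RARB is shown because its start region holds the letters of the textbook retinoic acid response element while the gene was at or below 0.64 TPM in the 4 single clones, in cells with RARA and RARG. The window is chr3:25428013-25428312 (RefSeq, GRCh38.p14, plus strand), and capitals mark a match, on either strand, to a direct repeat of GTTCA with any 6 bases between its copies and any 1 base before it.
RARB: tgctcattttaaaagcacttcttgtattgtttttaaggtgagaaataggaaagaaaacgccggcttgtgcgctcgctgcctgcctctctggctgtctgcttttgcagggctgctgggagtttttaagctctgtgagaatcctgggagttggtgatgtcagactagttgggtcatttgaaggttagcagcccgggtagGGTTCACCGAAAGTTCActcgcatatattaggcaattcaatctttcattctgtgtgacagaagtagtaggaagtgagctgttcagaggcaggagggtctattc
The repeat begins 53 bases before the start. It was found in 1 of 41 receptors and in 17 of 27305 promoters (0.0623%). The hexamer AGGTCA, the core bound by many nuclear receptors, was in 7 of 41 receptors (17.1%) and in 13.9% of all promoters.

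Receptors for fatty acids and sterols were led by NR1H2 and PPARD. PPARD, a fatty acid sensor expressed in most tissues, had 32.7 and 26.6 TPM in WT/C134W against 31.03 and 33.3 TPM in WT/WT, and a log2 fold change of -0.28 ± 0.16. The genotypes overlapped in TPM, while in CPM both mutant clones lay below both reverted clones. The log2 fold change of NR1H2 was -0.19 ± 0.16. With library totals as the only scaling it was 0.04, where the median of all genes was 0.23. NR1H3, the second liver X receptor, had 38 and 62 counts in WT/C134W against 91 and 55 in WT/WT. PPARG, the receptor of adipocyte differentiation, had the widest fold range over the single clones among the receptors with a mean above 10 TPM. It had 22.0 TPM in 3.11 and 14.0 TPM in 44b, against 4.83 TPM in 44a and 12.7 TPM in 4.72. The low clone was 44a, and in CPM 44b (14.3) lay below 4.72 (15.8), so the genotypes overlapped. The log2 fold change was 0.88 ± 0.65, and it was 0.22 without 44a and 2.08 without 4.72. PPARA, a driver of fatty acid oxidation, had 4.57 and 2.72 TPM in WT/C134W and 2.63 and 4.82 TPM in WT/WT, and its log2 fold change of -0.17 was 0.19 without 4.72 and 0.17 without 44b. The bile acid receptor NR1H4 and the xenobiotic receptor NR1I2 had 0 counts in all 6 libraries, and NR1I3 had at most 14.

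The start region of NR1H2 is shown for its narrow range across clones. It lies at chr19:50376207-50376506 (RefSeq, GRCh38.p14, plus strand), with capitals for TGACG, a core of the cAMP response element, and for GC box matches (GGGCGG) on both strands.
NR1H2: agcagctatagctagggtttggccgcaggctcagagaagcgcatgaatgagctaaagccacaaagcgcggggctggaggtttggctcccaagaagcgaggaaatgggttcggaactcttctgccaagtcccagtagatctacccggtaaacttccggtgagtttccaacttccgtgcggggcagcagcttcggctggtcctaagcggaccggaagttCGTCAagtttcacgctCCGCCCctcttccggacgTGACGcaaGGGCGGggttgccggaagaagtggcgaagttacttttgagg
The TGACG core was in 10 of 41 receptors (24.4%) and in 25% of all promoters.

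Receptors of thyroid hormone and vitamin D had log2 fold changes below 0 that did not pass the test. THRA, the thyroid hormone receptor of most tissues, had 19.3 and 14.5 TPM in WT/C134W against 18.4 and 18.3 TPM in WT/WT, with a log2 fold change of -0.17 ± 0.18. VDR, the vitamin D receptor, had 3.64 and 3.45 TPM in WT/C134W against 7.31 and 3.56 TPM in WT/WT, and its log2 fold change of -0.51 ± 0.35 was -0.02 without 44a. THRB had at most 16 counts in a library. The circadian repressor NR1D1 is read from the strand opposite THRA, with 263 bases of shared exon. Counts of both genes had decimals in all 6 libraries while their sum was whole in all 6, so reads were shared between them. NR1D1 had 9.70 and 6.18 TPM in WT/C134W against 9.50 and 9.48 TPM in WT/WT, with a log2 fold change of -0.43 ± 0.26. Here too the genotypes overlapped in TPM but not in CPM. NR1D2, the second circadian repressor, had 28.7 and 20.3 TPM in WT/C134W against 26.3 and 15.9 TPM in WT/WT, a log2 fold change of 0.02 ± 0.26 that was -0.29 without 4.72. Their activating counterpart RORA had 133 and 76 counts in 3.11 and 44b against 9 and 108 counts in 44a and 4.72, so the count of 44a stood apart. RORB had 0 counts in all 6 libraries.

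TPM is computed from the count and from RSEM's effective length, the mean length over the transcripts it assigned. A shorter length at a similar count thus gives a higher TPM by definition. For several receptors this length differed between libraries, so their TPM did not move with the count alone. The sign of the log2 ratio of mean TPM and that of the log2 fold change in counts were opposite in 3 of the 26 receptors (NR2F2, RXRB and NR2C2). RORA had an effective length of 4186 bases in 3.11 and 927 in 44b, against 332 in 44a and 1251 in 4.72. With 525 bases in 3.11-44b its level there was 9.06 TPM, from 121 counts, whereas 133 counts in 3.11 gave 1.19 TPM. PGR had 10598 and 7792 bases in WT/C134W against 3730 and 11615 bases in WT/WT, and the shortest value belongs to 44a, where its TPM was highest. ESR1 had 1201 bases in 44b and 5849 in 3.11, against 5276 in 44a and 5524 in 4.72. The 34 counts of 44b gave 0.93 TPM and the 48 counts of 3.11 gave 0.31 TPM. The gene tables do not name the transcripts behind these lengths.

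**Figure D4:**
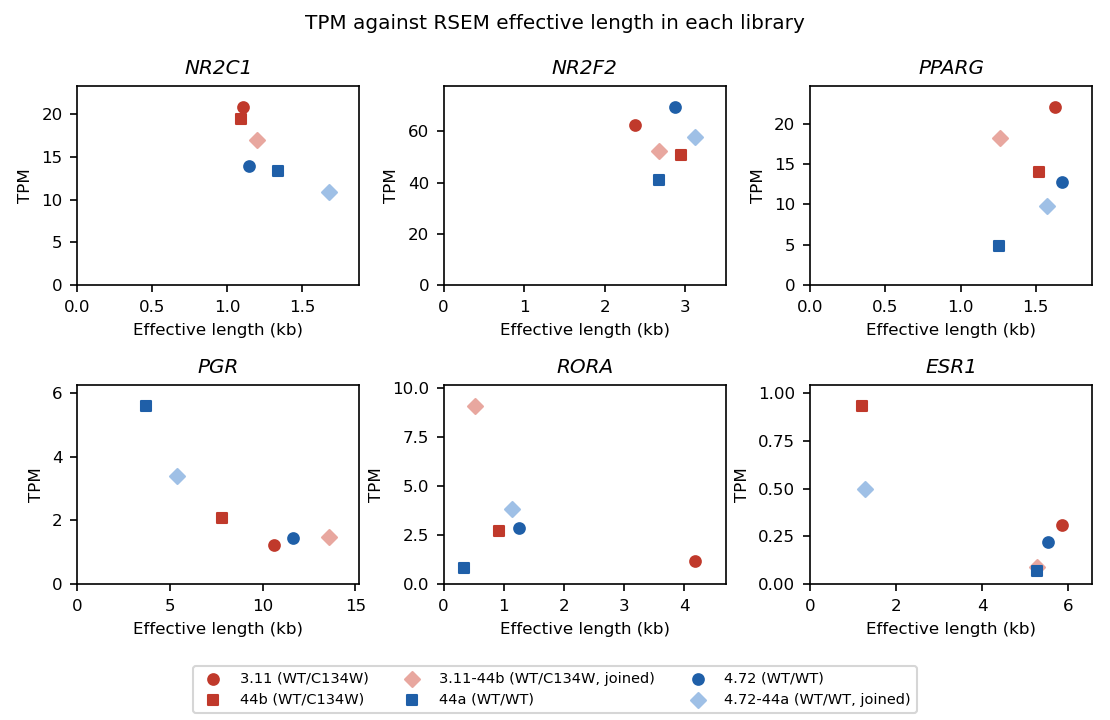
The plot of level against effective length shows TPM (vertical axis) and effective length in kb (horizontal axis) of 6 receptors, chosen after their values were seen, in each library (red, WT/C134W; blue, WT/WT; pale diamonds, joined). For RORA and ESR1 the points at short lengths include the highest TPM, 9.06 and 0.93, while the lengths of NR2F2 stay between 2375 and 3125 bases.

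In TPM the joined libraries held 10 of the 26 receptors between the values of 3.11 and 44b for WT/C134W. For WT/WT, 18 of 26 lay between those of 44a and 4.72. TPM moved with effective length for several receptors, and no such count was made in CPM. These numbers therefore do not tell whether either library is a mix. Within genotypes, the TPM of PPARG was 0.379 times as high in 44a as in 4.72 and 0.634 times as high in 44b as in 3.11. That of NR1D2 was 1.65 times as high in 44a and 0.708 times as high in 44b.

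None of the coregulators and chaperones that receptors work with passed the test between genotypes in edgeR on the 4 single clones. Of 40 tested members of 41 listed, 20 had a log2 fold change above 0 and 20 below, with a median of 0.00 and 0 called (0% of all genes). HSP90AA1, the chaperone that holds steroid receptors ready for ligand, had 2141 and 2765 CPM in WT/C134W against 1614 and 1612 CPM in WT/WT. Its genotypes did not overlap, with a log2 fold change of 0.60 ± 0.21. PPRC1 (a PGC-1 related coactivator) and SMARCD3 (a chromatin remodelling subunit) had log2 fold changes of -0.45 and -0.69.

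Genes that make, move or degrade the ligands were mixed. Retinoid handling genes were above 0 in 6 and below 0 in 4 of 10 tested (21 listed, median log2 fold change 0.08), thyroid hormone handling genes in 1 and 2 of 3 tested (median -0.10), and corticosteroid and vitamin D handling genes in 2 and 3 of 5 tested (median -0.45), with 0 called. RDH10, which makes retinal for retinoic acid synthesis, had 9.21 and 13.3 CPM in WT/C134W against 23.4 and 47.2 CPM in WT/WT, a log2 fold change of -1.65 ± 0.39 (adjusted p = 0.593 with edgeR's quasi-likelihood test and 0.0112 with DESeq2). STRA6, a retinol importer and a retinoic acid target, had 5.90 and 5.05 CPM in WT/C134W against 3.90 and 1.70 CPM in WT/WT. FABP5 and ADH5 had log2 fold changes of 2.23 ± 2.06 and 0.14 ± 0.14. SLC7A5, an amino acid carrier that also takes up thyroid hormone, had 151 and 146 CPM in WT/C134W against 596 and 344 CPM in WT/WT. Its log2 fold change was -1.66 ± 0.28, with an adjusted p of 0.48 (edgeR's quasi-likelihood test) and 8.97e-06 (DESeq2), and both mutant clones lay far below both reverted clones. DIO2, which activates the hormone, had a log2 fold change of -0.10 ± 1.23. CYP24A1, which degrades vitamin D and is its classic target, had 11 and 21 counts in WT/C134W against 0 counts in both WT/WT clones, while 4.72-44a had 7. It could pass the filter on low counts only through the WT/C134W clones, so its direction was fixed by that filter. It is one of the 2 genes above 0 in its list. H6PD, which feeds glucocorticoid activation, CUBN and CYP27B1 had log2 fold changes of -0.47, -0.45 and -0.64.

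Target genes of the receptors showed no common direction. Of the 83 tested targets, clock genes included, 15 were lower in both mutant clones than in both reverted clones and 15 were higher. Over all genes tested the shares were 19.7% and 19.9%. Glucocorticoid receptor targets were below 0 in 9 of 14 tested, with a median log2 fold change of -0.34 and 0 called. Of the 14, 6 were lower in both mutant clones than in both reverted clones (19.7% of all genes tested were) and 1 was higher (19.9%). TSC22D3, a glucocorticoid-induced leucine zipper, had 30.7 and 43.7 CPM in WT/C134W against 68.6 and 66.1 CPM in WT/WT, a log2 fold change of -0.86 ± 0.21 (adjusted p = 0.593 with edgeR's quasi-likelihood test and 0.0496 with DESeq2). ERRFI1 and GADD45B stood at -0.62 and -1.22, while the metallothionein MT2A stood at 0.53, with 273 and 299 CPM in WT/C134W against 194 and 202 CPM in WT/WT (adjusted p = 0.599 with edgeR's quasi-likelihood test and 0.0389 with DESeq2). Retinoic acid receptor targets were above 0 in 5 of 9 tested (median 0.34), with TGM2 at -0.81, MEIS1 at -0.92, STRA6 at 0.97 and NRIP1 at 0.34. This list shares 7 of its 14 members with other lists. Liver X receptor targets were above 0 in 6 of 9 (median 0.13), with the cholesterol exporter ABCA1 at 1.98 and 0.68 CPM in WT/C134W against 0.18 and 0.32 CPM in WT/WT, MYLIP at 0.86, LPCAT3 at 0.34 and PLTP at -0.56.

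Targets of PPARs were above 0 in 6 of 11 tested (median 0.06). ANGPTL4 and FABP3 had log2 fold changes of 1.57 ± 1.07 and -1.16 ± 0.97, and the genotypes of both overlapped in CPM. Within WT/C134W, ANGPTL4 had 0.48 CPM in 3.11 and 3.90 in 44b, and FABP3 had 0.46 and 3.44. ACADVL and ACADM had log2 fold changes of -0.19 and 0.20. Estrogen and progesterone receptor targets were above 0 in 4 of 9 (median -0.04). ADAMTS1, a protease that PGR induces at ovulation, had 141 and 177 CPM in WT/C134W against 76.6 and 100 CPM in WT/WT. Its log2 fold change was 0.85 ± 0.21 (adjusted p = 0.593 with edgeR's quasi-likelihood test and 0.0235 with DESeq2), while XBP1 stood at -0.69, CTSL at 0.51 and MYC at -0.28. Clock genes were above 0 in 10 of 13 (median 0.27), led by PER3 at 31.1 and 16.2 CPM in WT/C134W against 13.1 and 10.1 CPM in WT/WT, with CLOCK at 0.35, CIART at 0.86 and BHLHE40 at -0.50. Of the 13, 5 were higher in both mutant clones than in both reverted clones (19.9% of all genes tested were) and 1 was lower (19.7%). NR5A1 targets were above 0 in 4 of the 6 tested of 17 listed (median 0.14). STAR, which brings cholesterol into mitochondria, had 4.57 and 6.06 CPM in WT/C134W against 3.08 and 2.07 CPM in WT/WT, and SCARB1, FDXR and AMH had log2 fold changes of -0.59, 0.63 and 0.26. ERR and PGC-1 targets were split 5 and 5 (median -0.01), with NDUFA4, TFAM and ACADM at -0.38, 0.32 and 0.20. Thyroid hormone and vitamin D receptor targets were below 0 in 3 of 5 (median -0.34), with MME at 0.42, KLF9 at -0.34 and SPP1 at -0.67. CYP24A1 was counted again here, above 0, with a direction that the filter on low counts had fixed. In all these lists 0 members were called by edgeR's test on the 4 single clones.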

How the data were processed

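The 6 deposited gene tables, 1 per library, were grouped by their genotype label. Per the file headers, each holds RSEM's expected count per gene (not scaled by the authors, and with decimals), TPM (scaled by the authors to effective length and a common sum), effective length in bases, and FPKM, which was not used. STAR 2.7.6a, Picard 2.8.1, RSEM 1.3.1, DESeq2 1.26.0 and R 3.6.3 are named in the submitters' processing notes, without roles. The notes also name the mouse build GRCm38, although gene IDs are human. The human build, annotation and strandedness were not given in the sources used. Symbols and coordinates came from GENCODE release 29 (58216 of 58336 gene IDs matched).

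Deposited expected counts were rounded to whole numbers. Genes passing filterByExpr in the 4 single clones were tested in R 4.3.3 with edgeR 4.0.16 (TMM scaling, robust quasi-likelihood fit, glmQLFTest), with Benjamini-Hochberg adjustment over all genes at 0.05. SE is the absolute log2 fold change over the root of edgeR's F. CPM uses TMM factors from 6 libraries. The steps were tested on simulated data. Sums of counts were called whole within 0.015. Receptors and lists were chosen with earlier results of these data known. Named were receptors with at least 1 TPM in a single clone and, from each list, up to 4 tested members with the smallest p. Some genes that this rule names are not reported here. Alternatives were DESeq2 1.42.0, limma 3.58.1 voom, other scalings, filters, libraries and a block, and limma on log2(TPM + 1) and log2(TPM + 0.1).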

Additional observations from a re-analysis of the deposited data

How the results depend on the processing

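Over 355 comparisons of the 26 named receptors with an alternative, 328 kept the direction and the side of the threshold, and 16 receptors never changed sign. NR1H2 and THRA changed sign only with library totals, a scaling that moved the median of all genes to 0.23. The cause of the differing numbers of calls was not tested. In edgeR, prior degrees of freedom weigh a spread pooled over genes against that of the single gene. Their median was 3.71 on the single clones and infinite without a filter. P-values without a filter thus rest largely on the pooled spread and less on that between clones of each gene. Against 0 genes and 0 receptors called by edgeR on the single clones, all 6 libraries gave 511 genes and 1 receptor, no filter 664 and 2, DESeq2 283 and 1, and log2(TPM + 0.1) 1 gene. NR2F6 was called in the first 3, and NR4A1 without a filter (adjusted p = 0.00983, edgeR's quasi-likelihood test). All 6 libraries called 2 coregulators, 2 ligand genes and 5 targets, no filter 2 ligand genes and 6 targets, and DESeq2 2 ligand genes and 3 targets. Calls on all 6 libraries count the joined libraries as independent, which they may not be.

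The labels do not pair clones, and only 44a and 44b share a number in their names. The difference of 44a from 4.72 and that of 44b from 3.11 had r = 0.27 over 16416 genes and r = 0.40 over the 31 tested receptors. With 44a and 44b as one replicate block and 4.72 and 3.11, which share no number, as the other, 5 genes and 0 receptors were called and the receptor median was -0.19.

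The receptor median log2 fold change was -0.056 with library totals alone, -0.20 with a filter of 10 CPM, -0.20 with limma voom, -0.12 on log2(TPM + 1) and -0.13 on log2(TPM + 0.1), and -0.31 to -0.18 leaving out 1 clone each, lowest in size without 4.72. All-gene medians were 0.15 on log2(TPM + 1) and 0.16 on log2(TPM + 0.1).

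Signs changed as follows. With library totals the log2 fold change was 0.020 for NR2F2, 0.039 for NR1H2, 0.077 for RXRB, 0.20 for NR2C2, 0.054 for THRA and 0.063 for PPARA. On log2(TPM + 1) and log2(TPM + 0.1) it was 0.076 and 0.078 for NR2F2, 0.066 and 0.068 for RXRB, and 0.28 and 0.29 for NR2C2. Leaving out 1 clone gave -0.61 to 0.30 for NR2F2, -0.014 to 0.35 for NR2F1, -0.047 to 0.094 for NR3C1, -0.29 to 0.40 for NR1D2, -0.17 to 0.10 for NR2C2, -0.64 to 0.19 for PPARA and -0.14 to 3.56 for RORA. The fits without 1 clone leave a genotype with a single library, assumed to vary like the other genotype.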
